A study of Homo sapiens with 9 samples.

Results

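The epidermal lineage transcription factors, regulators of keratinocyte identity and differentiation, are described here across cells with a knockout of SGPL1, with extra SGPL1 and with unedited SGPL1. They are TP63, KLF4, KLF5, GRHL1, GRHL2, GRHL3, OVOL1, ZNF750 and HOPX, named by symbol and matched to the Ensembl identifiers of the count files, and they make up 9 of the 60671 genes listed. All 9 passed the filter on low counts and were among the 13390 genes tested. The cells were N/TERT keratinocytes, an established human epidermal keratinocyte line made immortal with telomerase, and all groups were untreated. The KO group carried a CRISPR knockout of SGPL1, the OE group overexpressed SGPL1, and the control group was labelled WT for SGPL1, with 3 libraries in each group. SGPL1 encodes sphingosine-1-phosphate lyase, which breaks down the lipid sphingosine-1-phosphate, and its inherited loss can bring a scaling skin disorder. The number of edited clones and the promoter that drives the extra SGPL1 are not given in the sources used here, so p-values measure the spread between these libraries.

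In the epidermis, keratinocytes divide in the basal layer, then leave it, stop dividing and build the cornified barrier. TP63 holds the epithelial identity of basal cells and opens the enhancers that later factors use. KLF4, ZNF750, GRHL3 and OVOL1 act in cells that leave the basal layer and turn on the barrier programme, while KLF5 and GRHL2 are also active in proliferating epithelial cells. HOPX is a small homeodomain protein that does not itself bind DNA and takes part in late steps of differentiation.

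Polyadenylated RNA was sequenced in all 9 libraries, with 6317564 to 9410555 gene counts in KO, 8773822 to 13330479 in OE and 8730711 to 9251703 in control libraries. Levels are given in counts per 1e6 counts (CPM) after scaling by TMM, a factor that aligns libraries on their bulk of genes. Means of a group carry their SD (n = 3) after ±, and log2 fold changes their SE. Adjusted p values were given by the quasi-likelihood test of edgeR, with the Benjamini-Hochberg method over the 13390 genes. A gene is called changed at an adjusted p under 0.05. SGPL1, counted over all its exons, had 59.6 ± 1.75 CPM in KO cells and 1055 ± 110.1 CPM in OE cells, against 92.5 ± 7.55 CPM in control cells. Its log2 fold change against control was -0.64 ± 0.09 in KO (adjusted p = 5.14e-06) and 3.51 ± 0.09 in OE (adjusted p = 4.90e-18). The summed level of 6 basal keratinocyte markers ran from 11709 to 13097 CPM in KO, from 21296 to 23137 CPM in OE and from 20698 to 20869 CPM in control libraries. KRT5 alone averaged 5850 CPM in KO, 10812 CPM in OE and 11016 CPM in control. Of the 6, 1 was called higher and 5 lower in KO, and 2 higher and 1 lower in OE, with shares over all genes given below. The summed level of 5 markers of simple epithelium ran from 1409 to 1563 CPM in KO, from 921 to 968 CPM in OE and from 1027 to 1193 CPM in control. The 6 fibroblast markers summed to 8.12 to 15.1 CPM in KO, 24.4 to 28.4 CPM in OE and 21.5 to 28.3 CPM in control, with COL3A1 and LUM without a count. The 5 melanocyte markers summed to 1.86 to 2.41 CPM in KO, 1.46 to 2.99 CPM in OE and 1.57 to 2.73 CPM in control, with TYR, DCT and SOX10 without a count. The 5 immune and endothelial markers summed to 0.241 to 0.673 CPM in KO, 0.292 to 0.664 CPM in OE and 1.05 to 1.20 CPM in control, with PTPRC, CD3E, CD68 and PECAM1 without a count. The part of these differences in the results on the lineage factors was not tested.

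Promoters are shown for GRHL3, which fell in KO, and for KLF4 and HOPX, which were called in opposite directions in KO and OE. The RefSeq table, on GRCh38.p14, held 9 promoters of 6 members, each from 250 bases before to 50 bases after an annotated start. The table gave none for GRHL2, OVOL1 and ZNF750. They are written 5′ to 3′ along the gene's strand, with capitals for matches to any of 5 motifs searched on both strands. The motifs were CACCC (the box of Kruppel-like factors), AACNGGTT (Grainyhead-like factors), ACATGT (a core of p53 family sites), TGANTCA (AP-1) and TATAAA, none of which contains another.
GRHL3, upstream start, chr1:24319107-24319406, plus strand: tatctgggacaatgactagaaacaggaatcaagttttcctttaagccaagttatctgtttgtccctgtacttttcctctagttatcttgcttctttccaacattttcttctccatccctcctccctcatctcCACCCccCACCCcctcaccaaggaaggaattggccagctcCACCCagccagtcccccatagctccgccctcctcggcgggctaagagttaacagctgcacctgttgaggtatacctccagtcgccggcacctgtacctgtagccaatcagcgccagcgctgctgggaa
KLF4, chr9:107489720-107490019, minus strand: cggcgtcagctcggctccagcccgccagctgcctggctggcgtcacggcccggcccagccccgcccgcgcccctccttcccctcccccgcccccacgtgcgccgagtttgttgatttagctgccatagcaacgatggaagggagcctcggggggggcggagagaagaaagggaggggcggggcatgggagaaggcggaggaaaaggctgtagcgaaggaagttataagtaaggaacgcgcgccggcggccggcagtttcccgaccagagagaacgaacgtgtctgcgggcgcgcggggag
HOPX, upstream start, chr4:56681247-56681546, minus strand: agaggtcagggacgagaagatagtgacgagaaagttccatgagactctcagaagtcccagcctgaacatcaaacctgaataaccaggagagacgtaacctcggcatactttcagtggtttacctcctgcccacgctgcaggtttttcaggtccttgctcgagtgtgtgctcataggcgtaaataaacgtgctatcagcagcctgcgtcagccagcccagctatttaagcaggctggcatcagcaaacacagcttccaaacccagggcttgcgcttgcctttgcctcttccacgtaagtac
HOPX, downstream start, chr4:56656468-56656767, minus strand: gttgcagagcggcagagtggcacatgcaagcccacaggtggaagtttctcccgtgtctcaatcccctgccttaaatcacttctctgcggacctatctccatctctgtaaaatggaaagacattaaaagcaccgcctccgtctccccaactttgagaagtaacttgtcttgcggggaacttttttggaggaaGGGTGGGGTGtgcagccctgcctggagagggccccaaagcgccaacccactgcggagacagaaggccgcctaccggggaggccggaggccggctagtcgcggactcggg
The GRHL3 stretch held 3 matches to CACCC, the downstream HOPX stretch 2 adjoining ones on the opposite strand, and the KLF4 and upstream HOPX stretches none of the 5 motifs. CACCC occurred in 5 of the 9 members' promoters and in 59.9% of all 35116 promoters in the table. TATAAA occurred in 2 of the 9, those of the most upstream TP63 start and of the upstream KLF5 start, and in 11.5% of all. The RefSeq table held no internal start of TP63, and the TP63 match lay after the start, on the opposite strand. AACNGGTT, ACATGT and TGANTCA occurred in none of the 9, against 1.73%, 4.19% and 7.71% of all promoters. These are matches of letters in 300 bases and not measured binding sites.

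Of the 9 factors, 7 differed between KO and control cells, 2 upward and 5 downward, in a comparison in which 51.9% of all tested genes were called (26.0% higher and 25.9% lower). TP63 and HOPX were higher, and KLF4, KLF5 and the 3 Grainyhead-like genes were lower, while OVOL1 and ZNF750 were not called. In these bulk samples, fewer cells that express a gene and less of its RNA per cell cannot be told apart. The same 7 were those whose KO and control libraries did not overlap, which held for 59.5% of tested genes (30.0% higher and 29.4% lower in KO). The median log2 fold change of the 9 was -0.38, against -0.00 over all tested genes. Between OE and control, where 18.6% of genes were called (9.28% higher and 9.34% lower), KLF4 and OVOL1 were higher, KLF5, GRHL1 and HOPX were lower, and the other 4 were not called. The OE libraries lay wholly above the control libraries for KLF4 and OVOL1 and wholly below for KLF5, GRHL1, GRHL2 and HOPX, as for 34.8% of tested genes (17.2% above and 17.6% below). The median log2 fold change of the 9 was -0.24, against -0.01 over all genes. Both comparisons use the same control libraries.

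**Figure D1:**
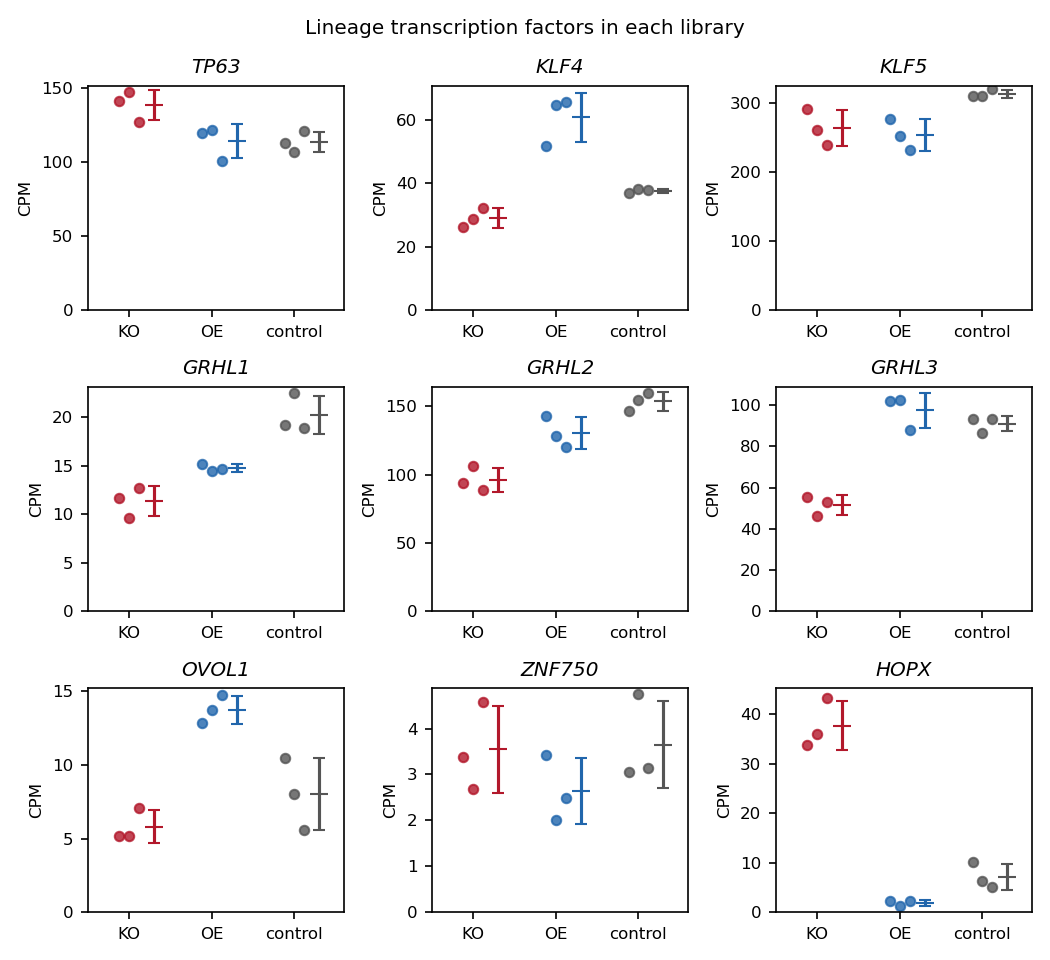
Level of each lineage factor in CPM (vertical axes from 0) in the 3 KO, 3 OE and 3 control libraries. Points are libraries, and the bar beside them is the mean with its SD; HOPX lies between 33.7 and 43.1 CPM in KO, between 1.21 and 2.26 CPM in OE and between 5.06 and 10.1 CPM in control libraries.

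TP63 (ENSG00000073282; GRCh38 chromosome 3, 189631389 to 189897276, plus strand) encodes p63, the p53 family member on which the epidermal lineage depends. It had 142, 147 and 128 CPM in KO libraries, 119.7, 122 and 101 CPM in OE libraries and 113, 107 and 121 CPM in control libraries. All KO libraries lay above all others, and OE and control libraries overlapped. The log2 fold change was 0.29 ± 0.09 for KO against control (1.22-fold, adjusted p = 0.00992) and 0.01 ± 0.09 for OE against control (adjusted p = 0.976). The rise in KO lost its call without KO library 2 (adjusted p = 0.0602) or without control library 2 (adjusted p = 0.0651), within a range of 4.23e-05 to 0.0651 over 19 alternative settings. Counts were per gene, so the isoforms with and without the transactivating N terminus were not separated.

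The Kruppel-like factors KLF4 and KLF5 are zinc finger proteins that bind related sites. KLF4 (ENSG00000136826; chromosome 9, 107484852 to 107490482, minus strand), which is needed for the skin barrier in mice, had 26.1, 28.7 and 32.3 CPM in KO libraries. It had 51.7, 64.6 and 65.6 CPM in OE libraries and 36.9, 38.2 and 37.8 CPM in control libraries. The 3 groups did not overlap, with KO lowest and OE highest. KLF4 fell in KO by 0.38 ± 0.12 on the log2 scale (adjusted p = 0.0115) and rose in OE by 0.69 ± 0.11 (adjusted p = 0.000109). The fall in KO lost its call without KO library 1, the lowest (log2 fold change -0.31, adjusted p = 0.0645, over a range of 0.00106 to 0.0645), and the rise in OE kept its call in all 19 alternatives. The edited groups differed by -1.07 ± 0.12 for KO against OE (adjusted p = 5.50e-08).

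KLF5 (ENSG00000102554; chromosome 13, 73054976 to 73077541, plus strand), a Kruppel-like factor of proliferating epithelial cells, was lower in both edited groups. It had 291, 259.8 and 238 CPM in KO libraries, 277, 252 and 231 CPM in OE libraries and 309, 309 and 319 CPM in control libraries. Every control library lay above every edited one. The log2 fold change was -0.25 ± 0.08 in KO (adjusted p = 0.0172) and -0.31 ± 0.08 in OE (adjusted p = 0.0127). Both are small, and calls were lost without control library 3 (adjusted p = 0.0612 for KO and 0.0596 for OE), and for KO also without KO library 2 (0.0551) or KO library 3 (0.106). Over the alternatives the adjusted p ran from 2.56e-05 to 0.106 for KO and from 0.00264 to 0.0596 for OE. KO and OE overlapped, with a difference of 0.06 ± 0.08 on the log2 scale (adjusted p = 0.587).

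The Grainyhead-like factors are epithelial regulators related to fly grainyhead, of which GRHL3 is known in mice for barrier formation and wound closure, GRHL1 for desmosomal cadherins and GRHL2 for epithelial junctions. All 3 fell in KO. GRHL3 (ENSG00000158055; chromosome 1, 24319357 to 24364482, plus strand) had 55.6, 46.4 and 53.1 CPM in KO libraries, 102, 103 and 87.7 CPM in OE libraries and 93.4, 86.7 and 93.1 CPM in control libraries. The KO libraries lay well under all others, and OE and control libraries overlapped. Its log2 fold change was -0.82 ± 0.10 in KO (1.76-fold lower, adjusted p = 3.03e-07), and 0.10 ± 0.09 in OE (adjusted p = 0.547). The fall in KO ran from -0.90 to -0.74 over the 19 alternatives and kept its call in each. The span of GRHL3 overlaps that of a protein-coding gene on the opposite strand, with 1732 counts over the 9 libraries and 0 exon bases shared. The counting command set no strand option, so intronic reads of that gene over GRHL3 exons could count as GRHL3. The size of such a share was not tested.

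GRHL2 (ENSG00000083307; chromosome 8, 101492439 to 101669726, plus strand) had 93.6, 106 and 88.9 CPM in KO libraries. It had 143, 128 and 119.8 CPM in OE libraries and 146, 154 and 159.9 CPM in control libraries. No 2 groups overlapped, and OE lay between the others. The log2 fold change was -0.67 ± 0.09 in KO (adjusted p = 1.56e-06). For OE it was -0.24 ± 0.09 (adjusted p = 0.0616), which passed the threshold with the exon length and GC trend removed (adjusted p = 0.0273), with limma-voom (0.0406) and without OE library 1 (0.0247), over a range of 0.0247 to 0.209.

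GRHL1 (ENSG00000134317; chromosome 2, 9951693 to 10002277, plus strand) had the lowest level per kb of exon of the 3. It had 11.7, 9.64 and 12.7 CPM in KO libraries, 15.2, 14.4 and 14.7 CPM in OE libraries and 19.2, 22.4 and 18.9 CPM in control libraries. The groups again did not overlap, in the order of GRHL2. The log2 fold change was -0.84 ± 0.16 in KO (adjusted p = 0.000152) and held its call in all 19 alternatives. In OE it was -0.45 ± 0.16 (adjusted p = 0.0437), a call that was lost on leaving out any one OE or control library, with adjusted p from 0.0677 without OE library 1 to 0.202 without control library 2. It was also lost without the filter on low counts (0.105) and with the length trend alone removed (0.0524). Over the alternatives the adjusted p ran from 0.0303 to 0.202. GRHL1 and GRHL2 share 158 and 50 exon bases (1.99% and 0.826% of their lengths) with antisense genes, where reads may have gone to neither gene.

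OVOL1 (ENSG00000172818; chromosome 11, 65787063 to 65797214, plus strand) is a zinc finger repressor that, in mice, helps keratinocytes stop dividing as they differentiate. It had 5.18, 5.16 and 7.10 CPM in KO libraries, 12.8, 13.7 and 14.7 CPM in OE libraries and 10.5, 8.01 and 5.62 CPM in control libraries, from 131, 454 and 222 counts per group. All OE libraries lay above all others, and control library 3 lay inside the KO range. OVOL1 rose in OE by 0.78 ± 0.22 on the log2 scale (1.71-fold, adjusted p = 0.0135). In KO the log2 fold change of -0.49 ± 0.24 was not called (adjusted p = 0.0954). Without control library 3 the OE value was 0.58 (adjusted p = 0.0954) and the KO value -0.69 (adjusted p = 0.0244), in ranges of 0.00371 to 0.0954 and 0.0244 to 0.440. The KO value was also called with the length trend alone removed (-0.58, adjusted p = 0.0443). OVOL1 shares 1039 exon bases, 27.3% of its length, with an antisense gene on the opposite strand that had 0 counts in all 9 libraries. The counting command set no option for strand or for reads in several genes. Reads in the shared bases may thus have gone to neither gene. The 0 counts therefore do not show that the antisense gene is silent, and levels of OVOL1, per kb of exon too, may be understated.

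ZNF750 (ENSG00000141579; chromosome 17, 82829434 to 82840022, minus strand), a p63 target that drives late differentiation, had few counts in every library. It had 3.37, 2.69 and 4.57 CPM in KO libraries, 3.43, 2.02 and 2.48 CPM in OE libraries and 3.06, 4.74 and 3.15 CPM in control libraries, from 79, 85 and 101 counts per group. The groups overlapped, and no difference was detectable at this depth. The span of ZNF750 overlaps that of a protein-coding gene on the opposite strand, which had 12552 counts over the 9 libraries. They share 0 exon bases, but without a strand option, intronic reads of that gene over ZNF750 exons could count as ZNF750. The size of such a share was not tested. The log2 fold change was -0.07 ± 0.35 for KO (adjusted p = 0.892) and -0.47 ± 0.35 for OE (adjusted p = 0.395).

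HOPX (ENSG00000171476; chromosome 4, 56647988 to 56681899, minus strand) moved most of the 9 in each comparison. It had 33.7, 35.9 and 43.1 CPM in KO libraries, 2.21, 1.21 and 2.26 CPM in OE libraries and 10.1, 6.43 and 5.06 CPM in control libraries. The groups did not overlap, and the highest OE library lay under the lowest control library. HOPX rose in KO by 2.37 ± 0.21 on the log2 scale (5.18-fold, adjusted p = 3.75e-09) and was 3.74-fold lower in OE (log2 fold change -1.90 ± 0.28, adjusted p = 2.46e-05), where the 3 libraries held 63 counts in all. Both calls held in all 19 alternatives, with log2 values of 2.17 to 2.70 in KO and -2.10 to -1.58 in OE. In fold terms KO exceeded OE 19.4 times (log2 fold change 4.28 ± 0.25, adjusted p = 2.04e-12).

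Set directly against each other, KO and OE cells differed in 7 of the 9 factors, in a comparison in which 57.6% of all tested genes were called (28.6% higher and 29.0% lower in KO). TP63 and HOPX were higher in KO, and KLF4, GRHL1, GRHL2, GRHL3 and OVOL1 were lower. The same 7 did not overlap between KO and OE libraries, as for 61.6% of tested genes (30.5% higher and 31.1% lower). The log2 difference was -0.91 ± 0.10 for GRHL3 (adjusted p = 3.37e-08), -0.43 ± 0.09 for GRHL2 (adjusted p = 0.000285) and -1.26 ± 0.23 for OVOL1 (adjusted p = 5.81e-05). For TP63 it was 0.29 ± 0.09 (adjusted p = 0.0100), a call lost without KO library 2 (adjusted p = 0.0668) or OE library 3 (adjusted p = 0.0648), within a range of 5.73e-05 to 0.0668. For GRHL1 it was -0.39 ± 0.17 (adjusted p = 0.0489), a call that was lost in 16 of the 19 alternatives, with adjusted p from 0.0318 to 0.249. KLF4 and HOPX were the members called in opposite directions in the 2 edited groups against control.

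**Figure D2:**
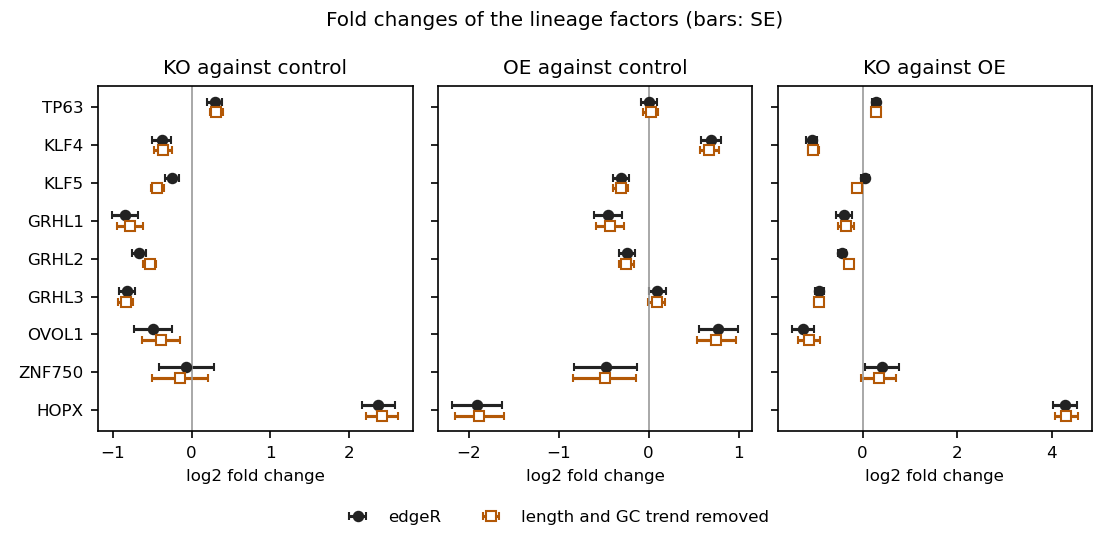
Log2 fold change of each factor (horizontal axes; bars are SE) for KO against control, OE against control and KO against OE. Filled circles are the edgeR fit and open squares the same fit with the exon length and GC trend removed; HOPX reaches 2.37 in KO and -1.90 in OE, and KLF4 -0.38 and 0.69.

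Between genes, levels were compared per 1000 exon bases (CPM per kb), with the exons of all isoforms joined. In KO cells KLF5 stood first at 71.5 CPM per kb, followed by TP63 (18.6), GRHL2 (15.9), GRHL3 (13.2), KLF4 (7.93), HOPX (4.85), OVOL1 (1.53), GRHL1 (1.43) and ZNF750 (1.12). The libraries of TP63 and GRHL2 overlapped there, as did those of neighbours among the last 3. In OE cells the order was KLF5 (68.8), GRHL3 (24.9), GRHL2 (21.5), KLF4 (16.6), TP63 (15.3), OVOL1 (3.62), GRHL1 (1.85), ZNF750 (0.837) and HOPX (0.244), with overlap between GRHL3 and GRHL2 and between KLF4 and TP63. In control cells it was KLF5 (85.0), GRHL2 (25.4), GRHL3 (23.3), TP63 (15.2), KLF4 (10.3), GRHL1 (2.54), OVOL1 (2.11), ZNF750 (1.15) and HOPX (0.930), and neighbours among the last 4 overlapped. KLF5 led in every group, and its control level was above that of 96.9% of tested genes. HOPX moved between the sixth place in KO and the last in OE and control, places that depend on its joined exon length.

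Fold changes in KO libraries followed gene length, which bears on these members. In KO against control, the median log2 fold change was 0.52 in the shortest of 10 equal bins of tested genes by exon length (median 1178 bases) and -0.45 in the longest (median 13563 bases), against -0.03 and -0.06 in OE. KLF4, KLF5, GRHL3 and OVOL1 (3662 to 3905 bases) fall in the fourth bin, where the median for KO was 0.11, and TP63, GRHL1 and HOPX (7478 to 7952 bases) in the eighth, where it was -0.19. GRHL2 (6053 bases) falls in the seventh, where it was -0.12, and ZNF750 (3158 bases) in the third, where it was 0.20. These lengths join the exons of all isoforms and can exceed those of the transcripts made in these cells. A member with shorter transcripts would belong in an earlier bin, and its correction would be off. This may hold for HOPX, a small protein with 7753 joined exon bases, and was not tested. With the trend of exon length and GC content removed, the KO changes were 0.32 for TP63, -0.36 for KLF4, -0.44 for KLF5, -0.79 for GRHL1, -0.53 for GRHL2, -0.84 for GRHL3 and 2.42 for HOPX, and the same 7 were called, beside 45.6% of all tested genes (24.8% higher and 20.7% lower). In OE the corrected calls were 2 higher and 4 lower, with GRHL2 added, beside 21.2% of all genes (10.7% and 10.5%). For KO against OE they were 2 higher and 4 lower, with GRHL1 lost, beside 53.1% of all genes (28.0% and 25.1%).

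**Figure D3:**
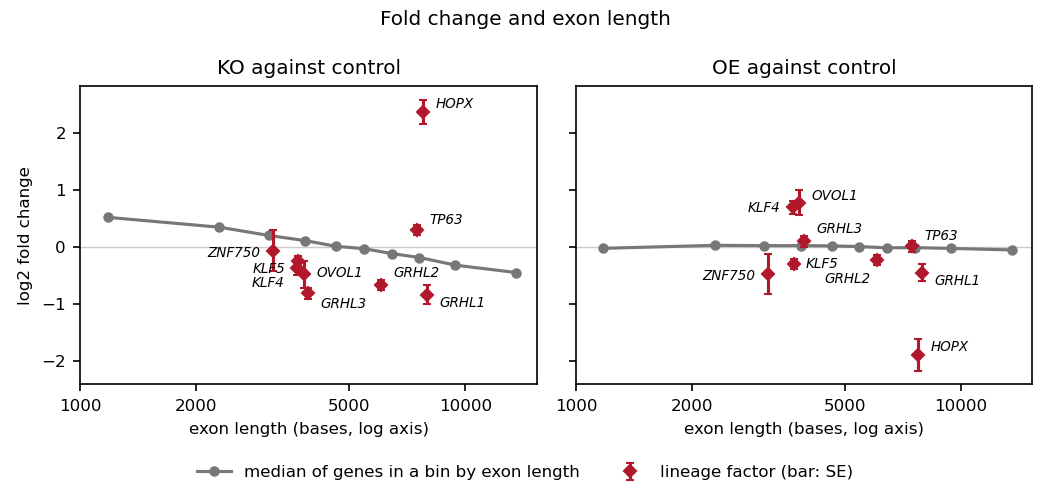
Log2 fold change against exon length in bases (log axis) for KO against control and OE against control. Grey points joined by a line are medians of 10 equal bins of tested genes by length, which run from 0.52 to -0.45 in KO; red diamonds are the lineage factors with their SE.

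Genes around the factors were read from 7 lists of 205 entries (200 genes), described by counts and medians, with the background given above (51.9% of tested genes called in KO and 18.6% in OE, medians -0.00 and -0.01). Of 33 other epidermal transcription factors tested, 5 were higher and 7 lower in KO, against 3 higher and 12 lower in OE, with medians of -0.05 and -0.19. After the length and GC correction the counts were 6 and 4 in KO (median 0.03) and 3 and 13 in OE (median -0.20). SOX9, a factor of hair follicle and progenitor cells, had 31.4 ± 0.958 CPM in KO, 56.3 ± 4.82 CPM in OE and 55.7 ± 3.33 CPM in control cells, a fall of 0.83 ± 0.11 in KO (adjusted p = 8.17e-07). HES1, a Notch target, rose in KO by 0.54 (adjusted p = 4.57e-05, 0.0526 corrected). ELF3, an ETS factor of epithelial differentiation, had 248 ± 17.8 CPM in KO, 118 ± 27.2 CPM in OE and 200.1 ± 7.95 CPM in control cells. It fell in OE by 0.77 ± 0.11 (adjusted p = 2.22e-05), while its rise in KO of 0.31 (adjusted p = 0.0203) was lost without KO library 1 (0.0692), KO library 2 (0.0843), control library 2 (0.0526) or control library 3 (0.0858). After the correction that rise was 0.69 (adjusted p = 1.26e-06). EHF, a related ETS factor, fell in OE by 0.40 (adjusted p = 0.00168), and BNC1, a basal zinc finger protein, rose there by 0.37 (adjusted p = 0.00331). RXRA, the partner of many nuclear receptors, fell in OE by 0.38 (adjusted p = 0.00426) and had a log2 change of -0.32 in KO (adjusted p = 0.00475) that reversed to 0.42 after the correction. The vitamin D receptor gene VDR and RUNX1 had -0.42 and -0.48 in KO, neither called after the correction, where RUNX1 was at 0.03.

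Among partners and chromatin regulators of the lineage factors, more were called lower than higher in KO. Of 24 tested, 3 were higher and 13 lower in KO (median -0.25), and 3 were higher and 2 lower in OE (median 0.02), but after the correction the KO counts were 6 and 7 (median -0.12). DNMT1, the maintenance DNA methyltransferase, had 52.3 ± 3.18 CPM in KO, 171 ± 20.1 CPM in OE and 117 ± 6.57 CPM in control cells. It fell in KO by 1.16 ± 0.10 (adjusted p = 1.31e-09, -0.63 corrected) and rose in OE by 0.55 ± 0.09 (adjusted p = 0.000108). UHRF1, which brings DNMT1 to replicating DNA, fell in KO by 1.12 ± 0.13 (adjusted p = 1.11e-07) and rose in OE by 1.00 ± 0.11 (adjusted p = 1.11e-06). EZH2, the Polycomb methyltransferase that holds differentiation genes silent in progenitors, rose in OE by 0.79 ± 0.15 (adjusted p = 0.000393) and was at -0.02 in KO. The histone methyltransferase genes KMT2D and KMT2C fell in KO by 1.37 and 1.61, or 0.39 and 1.06 after the correction. SMARCA4, the ATPase of SWI/SNF complexes, had -1.01 in KO and -0.11 once corrected, where it was no longer called. KDM6B, the demethylase that opposes EZH2, fell in OE by 0.49 (adjusted p = 0.0031) and had -0.67 in KO, which was not called after the correction.

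Of 34 genes listed as basal targets of p63, 6 were higher and 20 lower in KO (median -0.30). In OE, 11 were higher and 6 lower (median 0.09). TP63 itself was higher in KO and not called in OE. The list was set by hand and binding of p63 was not measured, so these counts do not measure p63 activity. After the correction the counts were 7 and 13 in KO (median -0.07) and 12 and 7 in OE (median 0.11). The basal keratins KRT5 and KRT14 had 5849.8 ± 522 and 2929 ± 109 CPM in KO, 10812 ± 387 and 7199 ± 529 CPM in OE, and 11016 ± 178 and 5453 ± 174 CPM in control cells. They fell in KO by 0.91 (adjusted p = 1.49e-09) and 0.90 (adjusted p = 1.61e-09), and KRT14 rose in OE by 0.40 (adjusted p = 0.000466). KRT15, a basal keratin, fell in OE (log2 fold change -0.99 ± 0.10, adjusted p = 3.18e-07) and was at 0.19 in KO, not called (adjusted p = 0.128). After the correction its KO value was a called rise of 0.48 (adjusted p = 0.000101). DSP and DST, which link keratin to desmosomes and hemidesmosomes, fell in KO by 1.57 (adjusted p = 1.99e-11) and 1.21 (adjusted p = 6.66e-10), or 1.23 and 0.51 corrected. FGFR3, a growth factor receptor, fell in KO by 0.86 (adjusted p = 1.29e-08, 0.54 corrected) and in OE by 0.64 (adjusted p = 5.63e-06). FRAS1, a basement membrane protein, fell by 2.08 in KO (1.43 corrected) and 2.63 in OE. FRAS1 had 50 counts in KO, 47 in OE and 251 in control. ITGB4, the hemidesmosomal integrin, rose in OE by 0.51 (adjusted p = 5.06e-05) and had -0.51 in KO, or 0.01 after the correction.

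Late differentiation genes known to lie downstream of KLF4, ZNF750, GRHL3 and OVOL1 were measured in part, since 20 of 45 passed the filter. Among those 20, 8 were higher and 5 lower in KO (median 0.34), and 4 were higher and 6 lower in OE (median 0.03). The correction left these counts as they were, but the KO median became 0.06 and the OE median 0.02. TGM1, the crosslinking enzyme of the cornified envelope and a known GRHL3 target in mice, had 25.8 ± 2.92 CPM in KO, 106.8 ± 6.28 CPM in OE and 85.6 ± 5.20 CPM in control cells. It fell in KO by 1.72 ± 0.11 (adjusted p = 1.11e-11). Its rise in OE of 0.32 (adjusted p = 0.019) was lost without OE library 1 (0.0628), OE library 2 (0.0648), control library 2 (0.0506) or control library 3 (0.109). The envelope plakins EVPL and PPL fell in KO by 1.62 (adjusted p = 7.24e-12) and 1.48 (adjusted p = 8.29e-11), or 1.02 and 1.01 corrected. The arginine deiminase gene PADI3 had 11.7 ± 3.02 CPM in KO, 0.629 ± 0.328 CPM in OE and 2.75 ± 0.439 CPM in control cells, a rise of 2.07 ± 0.31 in KO and a fall of 2.13 ± 0.42 in OE (adjusted p = 6.62e-06 and 0.000695). These PADI3 levels came from 263, 20 and 76 counts per group. KLK5, a protease of desquamation, likewise rose in KO by 0.84 (adjusted p = 1.06e-08) and fell in OE by 0.37 (adjusted p = 0.00205). SPRR1B, an envelope precursor, rose in OE by 0.92 (adjusted p = 0.0003), and ABCA12, the barrier lipid transporter, fell there by 0.62 (adjusted p = 2.14e-05). In KO their log2 changes were -0.20 and -0.35, and -0.79 and -0.16 after the correction, which called only the first.

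**Figure D4:**
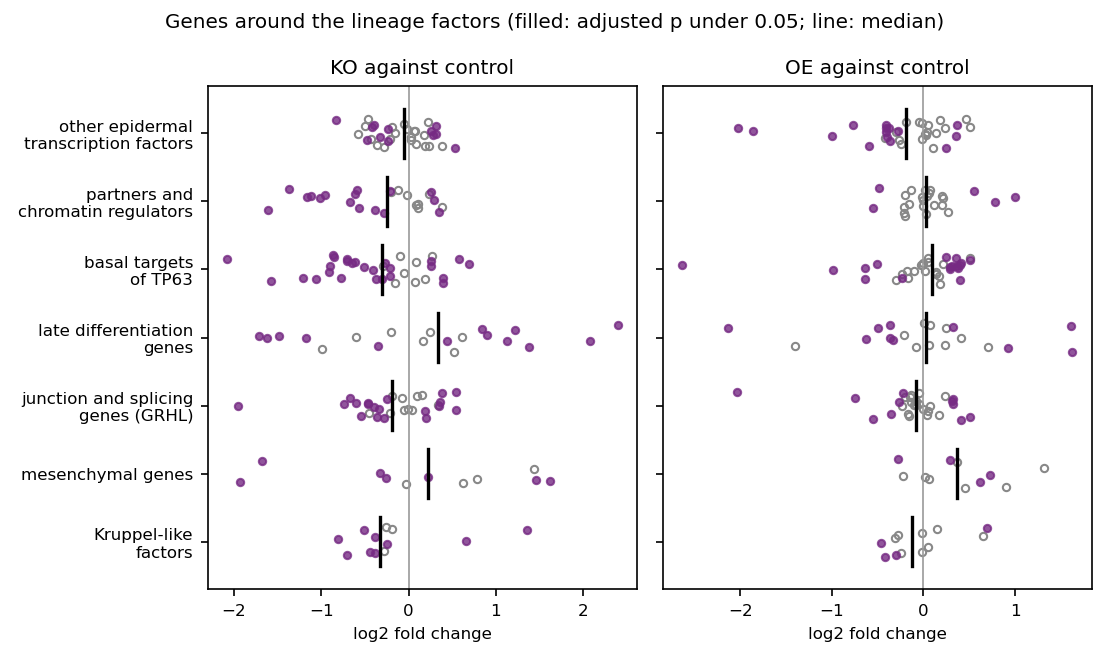
Log2 fold changes of the tested genes in 7 lists around the lineage factors for KO against control and OE against control. Each point is a gene, filled where its adjusted p is under 0.05, and the black line is the list's median, which is -0.30 in KO (-0.07 with the length and GC trend removed) and 0.09 in OE for basal targets of TP63.

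Epithelial junction and splicing genes bound by Grainyhead-like factors had 7 of 29 higher and 12 lower in KO (median -0.19), and 5 higher and 6 lower in OE (median -0.08), with corrected counts of 5 and 8 in KO (median -0.07) and 5 and 7 in OE. The tight junction adaptor CGN had 18.4 ± 1.39 CPM in KO, 67.2 ± 8.31 CPM in OE and 72.0 ± 4.10 CPM in control cells, a fall of 1.96 ± 0.12 in KO (adjusted p = 9.62e-12). The desmosomal gene PKP3 and the splicing factor gene ESRP2 fell in KO by 0.60 (adjusted p = 4.39e-07) and 0.74 (adjusted p = 6.77e-07), or 0.30 and 0.44 corrected. TJP3, another junction adaptor, fell in OE by 2.04 ± 0.19 (adjusted p = 4.84e-08) and was at -0.19 in KO. TMEM54, an epithelial membrane protein, rose in KO by 0.55 (adjusted p = 0.000115, 0.118 with the length trend alone removed) and in OE by 0.50 (adjusted p = 0.000965). The receptor gene ERBB3 fell in OE by 0.55 (adjusted p = 0.00101) and SPINT1, an inhibitor of matriptase, by 0.36 (adjusted p = 0.00116). In KO, ERBB3 and the polarity gene LLGL2 had -0.47 and -0.67 and were not called after the correction.

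Of 18 mesenchymal genes linked to repression by OVOL and Grainyhead-like factors, 11 were tested. In KO 3 were higher and 4 lower (median 0.23), and in OE 3 were higher and 1 lower (median 0.36). After the correction the counts were 3 and 3 in KO (median 0.27) and 3 and 1 in OE (median 0.39). SPARC, a matrix-binding protein, had 241 ± 1.93 CPM in KO, 91.6 ± 1.82 CPM in OE and 87.5 ± 4.76 CPM in control cells, a rise of 1.46 ± 0.08 in KO (adjusted p = 1.95e-12). Fibronectin (FN1) had 821 ± 104 CPM in KO, 4039 ± 499 CPM in OE and 2626 ± 76.6 CPM in control cells. It fell in KO by 1.68 ± 0.10 (adjusted p = 5.29e-12) and rose in OE by 0.62 ± 0.09 (adjusted p = 4.02e-05). MMP2, a matrix protease, fell in KO by 1.92 ± 0.24 (adjusted p = 5.24e-07), from 82 counts in KO, 389 in OE and 375 in control. ITGA5, the fibronectin receptor, rose in OE by 0.73 (adjusted p = 7.48e-07). MSN, which links actin to the membrane, fell in KO by 0.33 (adjusted p = 0.00212). Its rise in OE of 0.29 (adjusted p = 0.0162) was lost without OE library 1 (0.0510), OE library 2 (0.0585), control library 1 (0.0664) or control library 2 (0.0604). SNAI2 and ITGA5 had 0.23 and -0.25 in KO, values that turned to -0.16 and 0.11 after the correction, where neither was called.

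Across the Kruppel-like family, 12 of 18 genes were tested, KLF4 and KLF5 included. In KO 2 were higher and 7 lower (median -0.33), where 26.0% and 25.9% of all tested genes were. In OE 1 was higher and 3 lower (median -0.13), where 9.28% and 9.34% of all were. After the correction the counts were 2 and 8 in KO (median -0.28) and 1 and 3 in OE (median -0.13). KLF4 was the gene of the family that rose in OE. KLF10, a gene induced by TGF-beta, rose in KO by 0.66 (adjusted p = 8.39e-07) and fell in OE by 0.46 (adjusted p = 0.000499), opposite to KLF4 in both. KLF9 fell in KO by 0.44 (adjusted p = 0.00131) and in OE by 0.42 (adjusted p = 0.00511), as KLF5 did. KLF6, KLF7 and KLF13 fell in KO by 0.39, 0.51 and 0.80, and by 0.35, 0.32 and 0.24 after the correction.

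For each factor, the 2 genes with the most similar profile of log2 CPM over the 9 libraries were taken as a description, by Pearson's r (n = 9), among genes that averaged 5 CPM or more. Group differences and gene length can run through these profiles. ZNF750 and the 2 genes closest to it were called in no comparison of the fit as reported, so replicate spread can also shape them. HOPX was closest to HPGD (0.996), which encodes the prostaglandin-degrading enzyme, and METAP2 (0.994). HPGD had 102.9 ± 9.12 CPM in KO, 7.79 ± 1.21 CPM in OE and 22.7 ± 4.83 CPM in control cells. GRHL3 was closest to LRRK1 (0.996) and SMARCA2 (0.994), GRHL2 to CAMSAP3 (0.995) and TSC2 (0.992), and GRHL1 to PHF20L1 (0.967) and CHD4 (0.966). KLF4 was closest to E2F1 (0.991), a cell cycle factor, and ACTB (0.989), and KLF5 to ILRUN (0.995) and RXRA (0.989). TP63 was closest to ADGRG6 (0.967) and IRAK1BP1 (0.965), OVOL1 to OTUD6B (0.962) and MCM5 (0.958), and ZNF750 to LINC01588 (0.967) and ZNF426 (0.899).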

How the data were processed

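The deposited files hold whole-number counts of reads per gene for 9 libraries, made by the authors with featureCounts 1.5.2 against Ensembl release 101 on GRCh38, per the file headers. The command given there has no setting for strand, for mates of a pair, or for reads that map to several places or genes. The submitters' processing notes name HISAT2 1.03, featureCounts 0.1.0 and DESeq2. Reads were paired, 150 bases long and from poly-A RNA, per the labels' protocols.

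Tests were run in R 4.3.3 with edgeR 4.0.16, and with DESeq2 1.42.0 and limma 3.58.1 as alternatives. The filterByExpr minimum count was 10, libraries were scaled by TMM, and all 9 entered one quasi-likelihood fit with group as the term, tested two-sided (common biological coefficient of variation 10.2%). A floor of 3 counts in a library equals 0.225 to 0.475 CPM. Log2 CPM for profiles used a prior count of 2. The alternatives were other normalizations, filters and tests, fits of 2 groups, the replicate number as a block, removal of length and GC trends per library (loess, span 0.3, as an offset; GC content for 13341 genes from GENCODE release 29) and each library left out in turn. Replicates differed by more than sampling noise (chi-square per degree of freedom 2.74 to 11.7). The fit was also run on counts simulated from its own means and dispersions. Few genes were changed there, none at a low level, and no length or GC trend was put in. That run therefore does not cover the trend or genes of few counts.

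Members, lists and tests were chosen with earlier results of these data known. The text names the 9 members, SGPL1, up to 4 called genes of each list by smallest p against control in KO and in OE, and 2 genes of like profile per member. Sequences are RefSeq's.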

Additional observations from a re-analysis of the deposited data

How the results depend on the processing

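Over 19 alternatives, 471 of 513 fold changes of the 9 factors in the 3 comparisons kept their side of the threshold, 36 lost the call, 6 gained it and none that was called changed sign. Of the 471, 11 changed sign without being called, in TP63 in OE, ZNF750 in KO and KLF5 in KO against OE. Among members, the number called lower in KO ran from 4 to 5 and the number called higher from 1 to 2 when a library was left out. In OE these were 1 to 3 lower and 1 to 2 higher, and for KO against OE 4 to 5 and 1 to 2. The single higher call of KO was reached without KO library 2 or control library 2, that of KO against OE without KO library 2 or OE library 3, and the lowest OE counts without control library 3. Libraries of the same replicate number did not deviate together (correlations of -0.077 to 0.066), and with the replicate number as a block the members called were 2 higher and 5 lower in KO, 2 and 2 in OE, and 2 and 4 for KO against OE, where GRHL1 lost its call in OE (adjusted p = 0.0542, or 0.0537 with the length and GC trend also removed) and in KO against OE (0.0598). Among all genes the block gave 6907, 2468 and 7669 calls, against 6951, 2493 and 7711.

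Among fold changes of other named genes that were called in the fit as reported or in the alternative, 12 results reversed, in each case after a length or GC trend was removed, alone or with the block. In KO against control, RUNX1 became 0.034, 0.033 with the block and 9.9e-05 with length alone, RXRA 0.424, 0.421 and 0.0726, ITGB4 0.00885 and 0.00799, ITGA5 0.107 and 0.106, SNAI2 -0.163 and -0.167, and TSC2 0.393 and 0.394. In KO against OE, KDM6B became 0.2996 and 0.2998, FGFR3 0.121 with both, LLGL2 0.0848 and 0.0822, and TSC2 0.576 with both and 0.142 with length alone, where TMEM54 became -0.345 and PHF20L1 0.112. With the length and GC trend removed, the reversed values were called for RXRA and TSC2 against control and for KDM6B and TSC2 in KO against OE. With length alone, that of TMEM54 was called. KDM6B and TMEM54 had not been called in KO against OE in the fit as reported. The other reversed values were not called, so those genes lost a call and were not shown to change the other way. Another 64 values changed sign without a call in either fit. ZNF750 in every group, OVOL1 in KO and control, and HOPX in OE rest on few counts. So do PADI3 in OE and control, MMP2 in KO, and FRAS1 in KO and OE. This limits their precision.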
